A study of Mus musculus with 3 samples.

Results

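Ly6c2 monocytes were studied in the kidneys of mice treated with folic acid (FA), an agent that injures kidney tubules and leaves fibrosis behind. A barcode, the tag shared by all RNA molecules of a captured cell, was kept if its count of unique molecular identifiers (UMIs, captured RNA molecules) was no lower than the lowest of any barcode deposited for Aoah-/- mouse 3, and if it had at least 200 genes and at most 50% of its UMIs from mitochondrial genes. A kept barcode was called a Ly6c2 monocyte if at least 3 of the 6 genes Ly6c2, Ccr2, Chil3, Plac8, Fn1 and Lyz2 were detected, with Ly6c2 or Ccr2 among them and at least 2 UMIs of Lyz2. It was left out if C1qa, C1qb and C1qc together had more than 2 UMIs, if Cd3g, Cd79a, Siglech and Cd209a together had more than 1, or if the tubule genes Lrp2, Slc34a1 and Slc12a1 together had more than 2. Of 48404 kept barcodes among 73281 in all, 752 met this rule. The cells were thus chosen by the measured UMI counts of these 16 genes, so the levels of these genes are given as a description and support nothing.

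Each library held the 3′ ends of transcripts from droplets loaded with the digested, unsorted kidney of 1 mouse aged 6 to 8 weeks. Replicates 2 and 3 of the Aoah-/- group and replicate 3 of the WT group were analysed. All 3 libraries were collected on day 14 after FA, and no library of a kidney without FA was analysed here. Aoah, which encodes acyloxyacyl hydrolase, an enzyme that removes fatty acyl chains from bacterial lipopolysaccharide, was deleted in all cells of the Aoah-/- mice and not in monocytes alone. WT has 1 library, so no test across mice was made, and the SD between the 2 Aoah-/- libraries is the only measure of spread between mice.

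Monocytes are made in the bone marrow and reach an injured organ through the blood. Classical monocytes carry the surface protein Ly6C and the chemokine receptor CCR2, which releases them from the marrow and draws them to sites that make CCL2, and in inflamed tissue they can turn into macrophages or into antigen-presenting cells. Non-classical monocytes have little Ly6C and CCR2, depend on the nuclear receptor NR4A1 and patrol the inner wall of blood vessels.

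Ly6c2 (chr15:75108158-75111970, minus strand, GRCm38, a protein-coding gene) gave the cells their name and has a close copy, Ly6c1 (chr15:75044018-75048830, minus strand), which endothelial cells use. The longest protein-coding transcripts of the genes were identical in 802 of the 822 aligned columns that hold a base of each (97.57%), and of the 351 words of 50 bases in the last 400 bases of the Ly6c2 transcript, 88 (25.07%) also lay in the Ly6c1 transcript. Reads from such stretches cannot be assigned to either copy, so both counts are uncertain to that extent. The 250 bases before the starts are printed so that the gene and its copy can be read side by side. They were identical in 171 of the 210 aligned columns that hold a base of each (81.43%), and the rest of the 290 columns were gaps, 33 of them at the ends, where the windows are offset. Sequences are those of RefSeq on GRCm38.p6, read 5′ to 3′ on the minus strand, and capitals mark GAGGAA or its reverse complement TTCCTC, the core letters bound by the myeloid factor Spi1 (PU.1).
Ly6c2, chr15:75111972-75112221: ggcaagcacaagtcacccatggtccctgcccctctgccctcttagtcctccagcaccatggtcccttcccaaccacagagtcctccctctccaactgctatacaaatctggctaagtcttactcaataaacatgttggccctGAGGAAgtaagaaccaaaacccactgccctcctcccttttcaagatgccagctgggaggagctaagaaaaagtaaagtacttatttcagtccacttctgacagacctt
Ly6c1, chr15:75048838-75049087: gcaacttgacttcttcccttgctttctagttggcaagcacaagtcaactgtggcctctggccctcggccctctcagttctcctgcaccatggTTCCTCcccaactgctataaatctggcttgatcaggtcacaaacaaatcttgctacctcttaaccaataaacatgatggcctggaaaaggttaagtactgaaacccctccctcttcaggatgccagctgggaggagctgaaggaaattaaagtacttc
Each printed window held 1 match, and 23.25% of 32851 windows of the same length before gene starts held at least 1. Each gene also had a window 2 that overlaps the printed one. It held 2 matches for Ly6c2 (chr15:75111938-75112187) and 1 for Ly6c1 (chr15:75048664-75048913). The matches are a description of these letters and not of binding. In the Ly6c2 monocytes, Ly6c1 stood at 53.7, 129.8 and 55.1 CPM (a gene's UMIs with all UMIs of these cells scaled to a total of 1000000). Here and from here on, values by library come in the order Aoah-/- replicate 2, Aoah-/- replicate 3, WT. These levels came mostly from 75 mixed cells with endothelial genes, called subcluster 3 further on, where Ly6c1 was at 703 CPM against 6.14 in all other Ly6c2 monocytes.

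The libraries held 25516, 24693 and 23072 barcodes with 167222984, 161015021 and 158551992 UMIs. Barcodes went down to 500 UMIs in the libraries of Aoah-/- replicate 2 and WT. Those of Aoah-/- replicate 3 stopped at a higher count, where the rule begins. The Ly6c2 monocytes numbered 257, 321 and 174, with 1434473, 1833671 and 1143586 UMIs in all. Their median UMI counts were 4987, 5339 and 5645, their median numbers of genes 1778, 1877 and 1870, and their median mitochondrial shares 4.34%, 4.55% and 5.02%. The cells were thus of similar depth in the 3 libraries, and 1 UMI was worth 0.697, 0.545 and 0.874 CPM. The pairs of libraries shared 171 to 176 barcodes, at most 0.763% of a library, and no Ly6c2 monocyte of a library had a barcode of a Ly6c2 monocyte of another. Error ranges of levels are exact Poisson 95% intervals and those of shares exact Clopper-Pearson 95% intervals, and both cover counting error only.

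Of the barcodes that met every other condition, 213, 264 and 158 had no UMI of the C1q genes, 11, 10 and 6 had 2 and were kept in, and 3, 2 and 2 had 3 and were left out. With 3 of the 6 markers, the least allowed, there were 75, 99 and 71 cells, and 30, 52 and 19 barcodes with 2 markers lay just outside. All 6 markers were found in 60, 72 and 26 cells. With 1 UMI of Lyz2, 57, 36 and 7 barcodes were left out, and 11, 19 and 3 with 2 UMIs were kept in. The C1q limit thus fell in a sparse stretch between cells, whereas the limit of 3 markers fell where cells were many. The Lyz2 limit left out more barcodes at its edge in the Aoah-/- libraries than in WT, and the part of this in the share of cells was not tested.

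The genes of the rule had the following levels in the chosen cells. Ly6c2 was at 1059.6 CPM (1007 to 1114.3), 1111.4 and 662.8, and Ccr2, the receptor of CCL2, at 712.5, 671.3 and 555.3. Chil3, a chitinase-like protein of monocytes, was at 386.2, 487.0 and 291.2. Plac8, a small cysteine-rich protein, was at 3714.3, 3872.6 and 2790.3. Fn1 (fibronectin) was at 587.7, 508.3 and 639.2, and Lyz2 (lysozyme) at 12966, 13290 and 13914. Ly6c2, Ccr2, Chil3 and Plac8 were lower in the WT library than in either Aoah-/- library, Fn1 and Lyz2 were not. With each cell thinned to that lowest depth, Ly6c2 was detected in 57.2%, 57.0% and 46.6% of the cells (69.6%, 75.1% and 62.1% before thinning). In tubule barcodes, which should lack the gene, thinned shares were 0.882%, 2.78% and 0.425%, at unthinned median depths of 9666, 6414 and 10039.5 UMIs. Ly6c2 and Ccr2 were found together in 56.4%, 58.6% and 45.4% of the cells, and Ccr2 without Ly6c2 in 30.4%, 24.9% and 37.9%.

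The label was checked by clustering the 752 cells on their 1000 most variable genes, with the 16 genes of the rule left out. The 7 subclusters were not all monocytes. Subcluster 0 (217 cells) was classical monocyte-like and subcluster 2 (168 cells) non-classical monocyte-like, while subcluster 1 (168 cells), led by MHC class II genes, stayed unnamed. These 3 held 553 of the 752 cells (205, 221 and 127 by library). The other 199 cells were led by genes of other cell types, and the main differences between genotypes are therefore set beside those of subclusters 0, 1 and 2, a choice made after the values had been seen. The comparisons with other cells of the kidney cover all 752 cells. The genes that lead a subcluster made it and are no finding between subclusters. For the same reason nothing is read from the counts of marker genes past 2-fold below, which stand beside the share of all genes past it, taken over genes found in at least 10% of the cells of the subcluster or of the other cells.

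**Figure D1:**
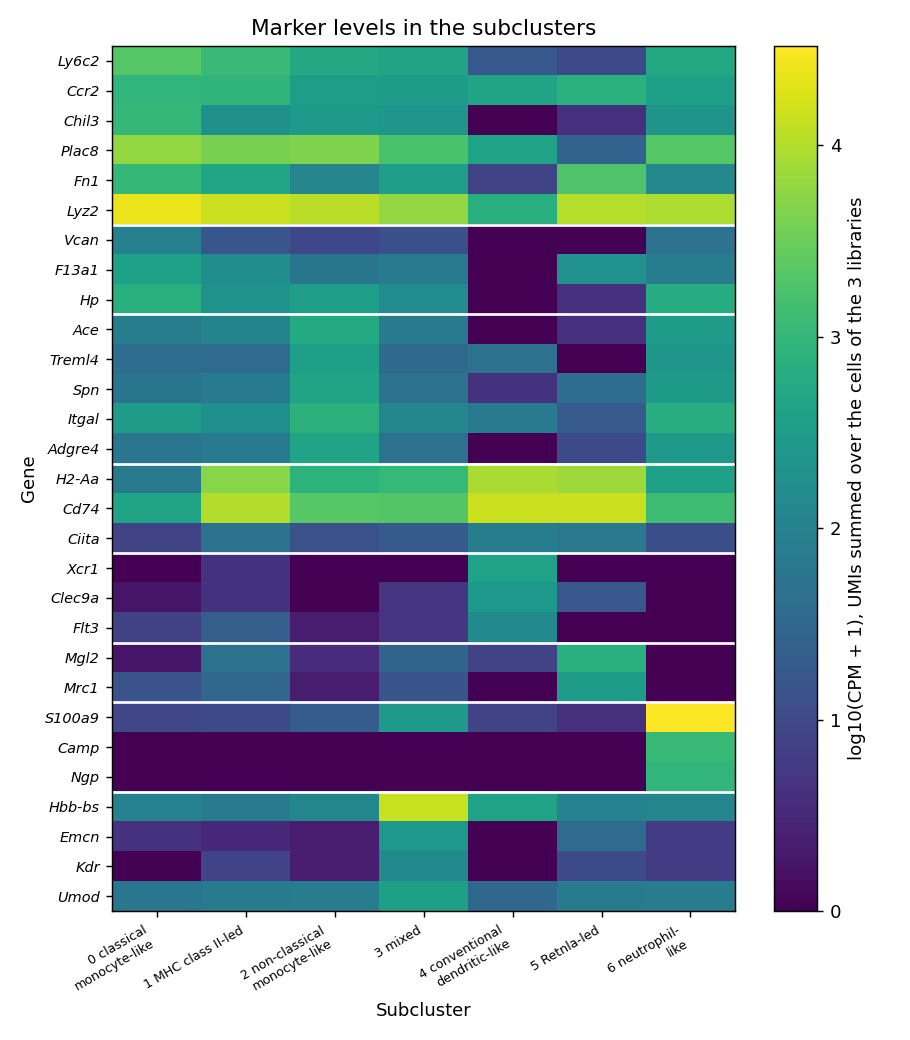
Levels of marker genes (rows) in the 7 subclusters of the Ly6c2 monocytes (columns), as log10(CPM + 1) of the UMIs summed over the 3 libraries, with white lines between groups of markers. Ly6c2 reached 2156 CPM in subcluster 0 and 16.5 in subcluster 4, where Xcr1 reached 396 CPM.

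Among the genes that led subcluster 0 were Vcan (versican), F13a1 (the A chain of coagulation factor XIII), Mgst1, Cd177, Hp (haptoglobin), Slfn1, Thbs1, Plcb1 and Ms4a4c. F13a1 stood at 382 CPM against 90.6 in the other cells and was detected in 70.0% of the cells. Of the 12 genes of the classical monocyte list, 9 were at least 2-fold above the other Ly6c2 monocytes, and 1.24% of all genes were. MHC class II was low here, with H2-Aa at 65.0 CPM.

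Subcluster 2 was led by Eno3, Cd300e, Slc12a2, Ace, Adgre4, Treml4, Spn, S1pr5, Fcgr4 and Lair1. Ace (angiotensin-converting enzyme) stood at 582 CPM in 86.3% of the cells, against 77.7 CPM in the others. All 11 genes of the non-classical list, among them Nr4a1, Cx3cr1, Itgal and Spn (CD43), were at least 2-fold higher, and 3.40% of all genes were. Ly6c2 was at 538 CPM and Ccr2 at 326, below the 2156 and 946 of subcluster 0. A rule that names Ly6c2 or Ccr2 thus also took in cells with the genes of patrolling monocytes.

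Subcluster 1 was led by AW112010, H2-DMb1, Tmem176b, Cd74, H2-Aa, Apoe, Tmem176a, H2-Ab1, Aif1 and Lgmn. H2-Aa, the alpha chain of an MHC class II molecule, stood at 5301 CPM in 92.3% of the cells and Ly6c2 at 1134 CPM. Of the 10 genes of MHC class II, 4 were past 2-fold, and of the 17 macrophage genes Apoe alone was, with 0.329% of all genes. Markers of natural killer and T cells were present in subcluster 1, with 318, 561 and 86.7 CPM summed over the list of 12 by library, and Nkg7 was at 94.1 CPM, against at most 17.9 in any other subcluster. Their part in the results for subcluster 1 was not tested.

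The remaining subclusters were smaller. Subcluster 3 (75 cells) was led by the globins Hbb-bs, Hba-a1 and Hba-a2 together with the endothelial genes Tm4sf1, Ptprb, Sparc, Ly6c1 and Egfl7, and all 6 endothelial, 4 of 5 erythroid and 6 of 8 tubule markers were past 2-fold in it, as were 15.2% of all genes. It is called mixed, since no single type fits these genes. It had the lowest median depth, 3207 UMIs. Subcluster 4 (50 cells, median 10836 UMIs) was conventional dendritic-like, led by Xcr1 and Clec9a, both receptors of type 1 dendritic cells, with Lyz2 at 668 CPM against 24138 in subcluster 0. Its cells entered the rule with Ccr2 at 438 CPM, and 8 of 10 cell cycle genes were past 2-fold in it, beside 6.11% of all genes. Subcluster 5 (40 cells) was led by Retnla, Fcrls, Mmp12, Mgl2, Lyz1, Areg and Lpl and held both dendritic (Mgl2) and macrophage (Mrc1) markers among its leading genes, so it carries no type name here. In it 3 of 11 dendritic markers, 2 of 17 macrophage markers and 7 of 10 MHC class II genes were past 2-fold, beside 5.62% of all genes. Subcluster 6 (34 cells) was neutrophil-like, with S100a9 at 33075 CPM and the late granule genes Camp and Ngp at 1139.8 and 959 CPM, and 10 of 12 neutrophil markers were past 2-fold in it, beside 8.22% of all genes. It also had 7 of 11 non-classical monocyte markers past 2-fold, among them Treml4 and Spn. That list summed to 4411 CPM in it, against 5674 in subcluster 2 and 1652.7, 1518.7 and 2058.9 in the neutrophils of the 3 libraries.

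The subclusters were not alike in the 3 libraries. Subcluster 0 held 26.1%, 31.5% and 28.2% of the cells, subcluster 1 30.4%, 18.1% and 18.4%, and subcluster 2 23.3%, 19.3% and 26.4%. In subclusters 0 and 1 the WT value lay between those of the Aoah-/- libraries, and in subcluster 2 it lay above both. Subcluster 3 held 5.06% (2.72 to 8.49), 16.8% (12.9 to 21.4) and 4.60% (2.01 to 8.86), so 54 of its 75 cells were of Aoah-/- mouse 3. Subcluster 4 held 5.45% (3.01 to 8.97), 4.67% (2.64 to 7.59) and 12.1% (7.63 to 17.9), a difference of -7.01 percentage points (SD 0.548 between the Aoah-/- libraries). Subcluster 5 held 6.23%, 3.74% and 6.90% and subcluster 6 3.50%, 5.92% and 3.45%. The dendritic-like cells were thus a larger part of the WT cells than of those of either Aoah-/- mouse, and the mixed cells a larger part in Aoah-/- mouse 3.

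**Figure D2:**
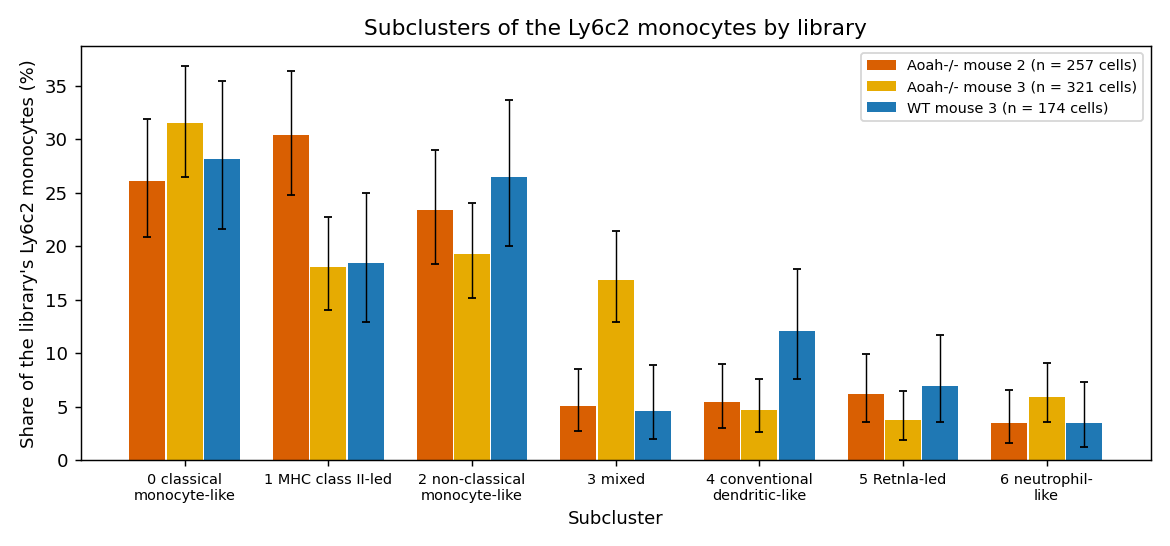
Share of each library's Ly6c2 monocytes (y axis, %) in each subcluster (x axis), with bars for the 3 libraries and exact Clopper-Pearson 95% intervals. Subcluster 4 holds 12.1% of the WT cells against 5.45% and 4.67% in the Aoah-/- libraries, and subcluster 3 holds 16.8% of those of Aoah-/- mouse 3 against 5.06% and 4.60% in the others.

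The Ly6c2 monocytes were first set beside all other kept barcodes of the same library. Among 3211 genes with at least 50 CPM on either side and outside the rule, 707 (22.0%) were at least 2-fold higher in all 3 libraries and 702 (21.9%) at least 2-fold lower, with no test since the cells were chosen for this kind of value. The number higher was 790 for the cells of subclusters 0, 1 and 2 alone. Of the monocyte lists, 9 of 11 measured classical and 9 of 9 measured non-classical genes were among the higher ones, and none among the lower. Ranked by the lowest of the 3 library ratios, F13a1 came first, at 145.0, 178.3 and 188.0 CPM against 1.60, 1.10 and 3.77 in all other barcodes, a log2 ratio of 5.31 to 6.42. Gpr141, an orphan receptor, followed with 172.2, 168.0 and 119.8 CPM against 3.46, 4.30 and 1.66. Treml4, a receptor of the Trem family, was at 97.6, 108.0 and 104.1 CPM against 2.31, 3.11 and 2.31. The lowest log2 ratio of these 3 genes in any library was 4.73, for Treml4. F13a1 was a leading gene of subcluster 0 and Treml4 of subcluster 2.

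Several of the 20 leading profile genes were receptors. Ms4a4c and Ms4a6c, tetraspan proteins of the Ms4a family, were at 353.4, 408.5 and 265.0 CPM and at 741.0, 884.0 and 606.9 CPM. The lectin receptors Clec4a3 (267.0, 297.2 and 241.3 CPM) and Clec4a1 (214.7, 212.7 and 166.1 CPM), the inhibitory receptor Cd300a (303.2, 307.0 and 301.7 CPM), Sirpb1c, Cd244, Ptpro and Gpr35 were on the list as well. Their lowest log2 ratio over the libraries lay between 3.84 for Gpr35 and 4.69 for Ms4a4c. The rest were Hp (292.8, 379.0 and 285.9 CPM), the calcium-binding S100a4 (1665, 1745 and 1839 CPM in 81.6% to 86.4% of the cells), Ifitm6, Ly6i and Tppp3, and Mnda, Oas3 and Mefv, which belong to nucleic acid sensing, the antiviral response and the inflammasome. S100a4 was the gene found in most cells, and Ly6i was found in the fewest, 19.0% to 23.3%. The rank covers the ratio to all other barcodes only, and the profile genes differed in the reference classes defined below. Hp was at 773.8, 782.8 and 893.9 CPM in neutrophils, whereas F13a1 was at 0 CPM there. S100a4 was at 1471, 1838.7 and 1599.8 CPM in type 2 conventional dendritic cells.

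**Figure D3:**
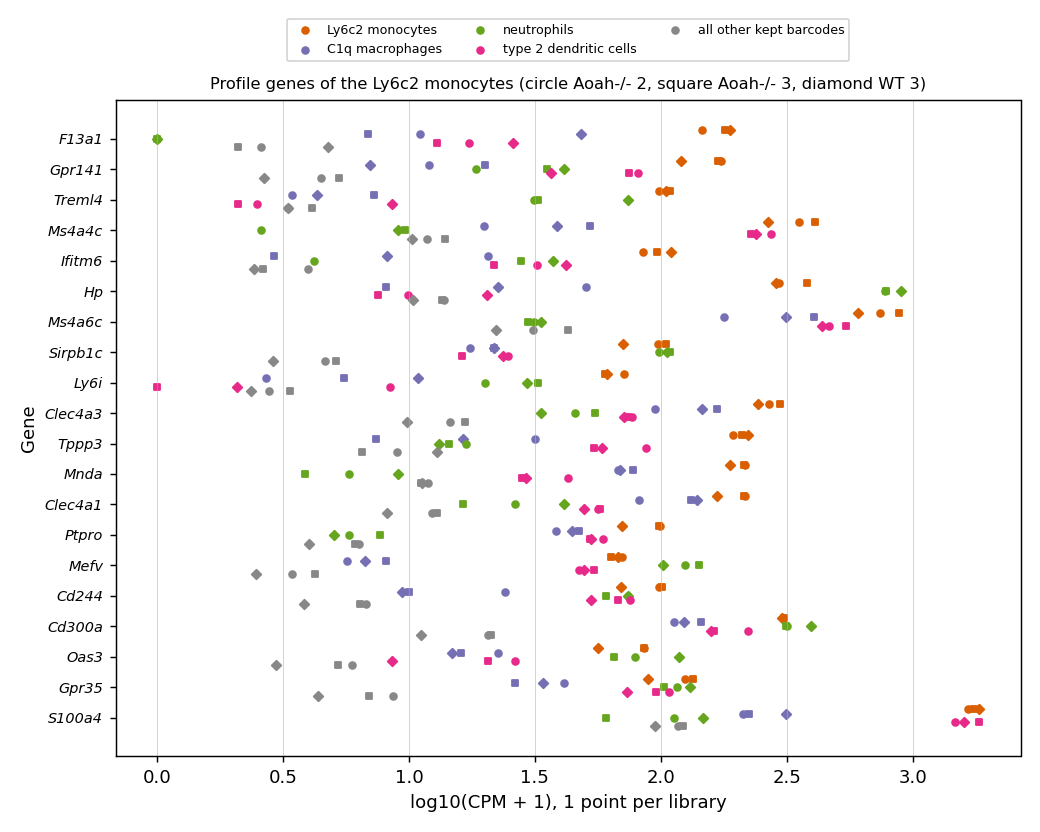
Levels of the 20 profile genes as log10(CPM + 1) on the x axis (log scale) in Ly6c2 monocytes, 3 reference classes and all other kept barcodes, 1 point per library and class. Every Ly6c2 monocyte point of F13a1 lies at or above 145.0 CPM, while all other kept barcodes stay at or under 3.77 CPM.

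Reference classes of myeloid cells were taken from the same libraries by UMI rules, namely 1462, 933 and 549 C1q macrophages, 235, 400 and 98 neutrophils and 97, 113 and 110 type 2 conventional dendritic cells. Against C1q macrophages, 138 of 2603 genes (5.30%) were higher and 97 (3.73%) lower at 2-fold in all 3 libraries. Ace was at 189.6, 171.8 and 144.3 CPM against 2.66, 4.85 and 6.01, Napsa, an aspartic protease, at 400.8, 402.5 and 443.3 against 27.8, 39.3 and 47.5, and Ltb4r1, the leukotriene B4 receptor, at 68.3, 71.4 and 84.8 against 3.30, 5.55 and 6.61. The remaining 5 of the 8 highest were Treml4, Gpr141, and the neutrophil genes Retnlg, S100a8 and S100a9, found in at most 16.8% of the Ly6c2 monocytes. The 8 lowest were the chemokines Pf4, Ccl7, Ccl8 and Ccl12 with Cd72, Igf1, Ms4a7 and Saa3. Pf4 was at 4.18, 0.545 and 1.75 CPM against 715.8, 276.3 and 616.2, and Cd72 at 4.18, 4.36 and 4.37 against 139.8, 382.0 and 353.6. The C1q macrophages of Aoah-/- mouse 2 also held genes of peritoneal macrophages, with Prg4 at 2028, 29.3 and 384 CPM in the C1q macrophages of the 3 libraries, and these genes' part in the comparison was not tested.

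Against neutrophils, 406 of 2805 genes (14.5%) were higher and 321 (11.4%) lower. Ms4a4c was at 1.59, 8.62 and 8.09 CPM in neutrophils, and H2-Aa at 54.1, 107.3 and 97.1 CPM against 2954, 2244 and 4135 in Ly6c2 monocytes. Within the Ly6c2 monocytes H2-Aa was low in subcluster 0 and at 5301 CPM in subcluster 1, so this difference does not hold for all of them. Cxcr2, the receptor that draws neutrophils, went the other way, with 869.3, 841.3 and 865.6 CPM in neutrophils against 16.03, 21.8 and 9.62. Mmp9, Il1r2, Asprv1, Cxcl3, Il1f9, Rdh12 and H2-Q10 were the other 7 of the 8 lowest. The neutrophils were chosen by S100a8 and S100a9 and by detection of at least 2 of Csf3r, Retnlg, Mmp9, Cxcr2, Ly6g and G0s2. The differences in Cxcr2 and Mmp9 are thus in part fixed by the choice of the neutrophils. Against type 2 conventional dendritic cells, 154 of 2599 genes (5.93%) were higher and 75 (2.89%) lower. Apoe was at 1659.8, 1813 and 1949 CPM against 101.2, 90.4 and 107.1, and Clec4e (Mincle) at 150.6, 177.8 and 139.9 against 7.44, 8.71 and 5.41. Mgl2 and Clec10a, lectins of this dendritic type, were at 78.1, 70.4 and 51.6 CPM against 1062, 1039.6 and 836.1, and at 23.01, 13.1 and 20.1 CPM against 327.6, 268.9 and 271.5. With Cd209a, a gene of that class, limited by the rule, low lectin levels are in part fixed by the choice of cells.

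Transcription factors of the myeloid line were found in all libraries. Of the 16 measured factors of the list, 13 were at least 2-fold above all other barcodes in the 3 libraries (22.0% of all genes). Against C1q macrophages, 0 of 17 were higher (5.30% of all genes) and 3 lower (3.73%). Against neutrophils, 5 of 16 were higher (14.5%) and 1 lower (11.4%). Against type 2 dendritic cells, 5 of 16 were higher (5.93%) and 0 lower (2.89%). Spi1, the factor whose core letters were marked above, was at 484.5, 503.4 and 503.7 CPM against 45.2, 48.4 and 29.2 in all other barcodes. Cebpb, a factor of inflammatory genes and of non-classical monocytes, was at 2208.5, 2130.7 and 2043.6 CPM, Irf8 at 288.6, 329.9 and 377.8 CPM, and Klf4 at 453.1, 608.1 and 446.8 CPM. Nr4a1 stood at 977.4, 1094 and 788.8 CPM, and in subcluster 2 it reached 1684 CPM. Irf8 was highest in the dendritic-like subcluster 4, with 1507 CPM, against 223 in subcluster 0.

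Receptors for growth factors and cytokines were at least 2-fold above the other barcodes in 13 of 13 measured genes, against 22.0% of all genes, the share to set beside the counts of the next lists too. Csf1r, the receptor that keeps monocytes and macrophages alive, was at 510.3, 511.0 and 425.9 CPM, and Ifngr1, a chain of the interferon gamma receptor, at 432.2, 442.3 and 427.6. Of the adhesion list, 8 of 11 were higher, with the integrin chains Itga4 (445.5, 446.6 and 384.8 CPM) and Itgal (319.3, 345.2 and 274.6 CPM) and with Cd44 (488.7, 493.6 and 509.8 CPM), which all serve the passage through vessel walls. Among Fc and pattern receptors and oxidase subunits, 13 of 14 were higher, among them the signalling adaptors Tyrobp (2757.8, 2712.6 and 2779 CPM) and Fcer1g, and Cybb, the catalytic subunit of the phagocyte oxidase, at 1198.3, 1326.8 and 969.8 CPM. None of these lists held a gene at least 2-fold below all other barcodes. In the same list order, 3 of 13, 4 of 14 and 0 of 16 were higher than in C1q macrophages (5.30% of all genes). Lower there were 0, 1 and 0 (3.73%). Against neutrophils, 2 of 15, 1 of 13 and 3 of 17 were higher (14.5%) and 2, 2 and 6 lower (11.4%). Against type 2 dendritic cells, 4 of 14, 3 of 13 and 7 of 14 were higher (5.93%) and 1, 1 and 0 lower (2.89%).

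Cytokines and chemokines are the signals by which monocytes act on other cells. Of 6 measured cytokines, 3 were at least 2-fold above all other barcodes (22.0% of all genes) and 3 at least 2-fold below (21.9%). Il1b (interleukin 1 beta) was the most abundant cytokine gene, with 2384.8, 2810.2 and 2444.9 CPM. C1q macrophages had 2294, 3973 and 4837 CPM of Il1b, less than Ly6c2 monocytes in Aoah-/- mouse 2 and more in the others, and neutrophils had 10399, 11626 and 12103 CPM. Tnf was at 37.0, 44.7 and 42.9 CPM and Il6 at 39.0, 21.8 and 35.0 CPM. Of 14 measured chemokines, none was higher and 10 were at least 2-fold lower than in C1q macrophages (5.30% and 3.73% of all genes), such as Ccl4 at 184.7, 212.1 and 200.2 CPM against 2244, 5235 and 7198. Of 9 chemokines measured against all other barcodes, Ccl6 and Ccl9 were at least 2-fold higher and 1 was lower (22.0% and 21.9% of all genes). For the recognition of lipopolysaccharide, the substrate of the deleted enzyme, Cd14 was at 617.6, 585.7 and 509.8 CPM and Tlr4 at 8.37, 7.09 and 9.62 CPM, with intervals that overlap between all libraries for Tlr4. Aoah itself gave 0, 2 and 8 UMIs, or 0, 1.09 and 6.996 CPM, and the 0 allows up to 2.09 CPM by the limit of 3 UMIs, which is used for a count of 0 in place of the interval. The labels do not say which part of the gene was deleted, so counts of its 3′ end check the genotype only in part.

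The share of Ly6c2 monocytes among kept barcodes was 1.66% (1.47 to 1.88), 1.63% (1.46 to 1.82) and 1.31% (1.12 to 1.52). The mean of the Aoah-/- libraries was higher than WT by 0.336 percentage points, with an SD of 0.0243 between the Aoah-/- libraries, and the interval of each Aoah-/- library overlaps that of WT. The limit on tubule UMIs bore unequally on the libraries, since it took out 20.9%, 39.8% and 11.2% of the barcodes that met every other condition. Without that limit the shares were 2.10% (1.88 to 2.34), 2.71% (2.48 to 2.94) and 1.48% (1.28 to 1.70), a difference of 0.929 points. As a share of the 4 myeloid classes together the order turned, with 12.5%, 18.2% and 18.7%, a difference of -3.34 points (SD 3.99), within the gap between the Aoah-/- libraries. C1q macrophages made up 9.47%, 4.74% and 4.14% of kept barcodes, so the denominators differ. At the other end, leaving out cells with any UMI of the 3 tubule genes brought the difference among kept barcodes to 0.0491 points (0.699%, 0.604% and 0.603%). Tubule barcodes made up 36.7%, 35.1% and 47.9% of kept barcodes, and their part in the difference was not tested.

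Gene levels in Aoah-/- and WT Ly6c2 monocytes were close for most genes. A gene was counted as past 2-fold if the mean of the Aoah-/- libraries was at least 2-fold from WT and both lay on the same side of WT by more than the gap between them. Among 2873 genes with at least 50 CPM in WT or in the Aoah-/- mean, 20 (0.696%) were higher and 13 (0.452%) lower, 1.15% in all, and 43.4% lay above WT in both Aoah-/- libraries and 33.5% below. The median log2 ratio was 0.04 for all these genes. These counts describe 3 libraries.

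Of the 20 higher genes, the 12 with the largest ratios were Tpm3-rs7, Spp1, Lcn2, Gm8730, Wfdc2, Clu, Mal, Umod, Pdzk1ip1, Atp1b1, Rsad2 and Hes1. Tubule cells are known to express many of these, such as Umod, Wfdc2, Mal and Atp1b1. Spp1 (osteopontin) was at 582.8, 532.3 and 73.5 CPM, with 74.5% of the UMIs of Aoah-/- mouse 2 and 65.0% of those of Aoah-/- mouse 3 in 5 cells. Lcn2, Clu, Wfdc2 and Mal likewise had 61.6% to 92.3% of their Aoah-/- UMIs in 5 cells of each library. Lcn2 was a leading gene of the neutrophil-like subcluster 6, at 1869 CPM against 27.4 in the other Ly6c2 monocytes. It stood at 533.4, 501.1 and 610.8 CPM in neutrophils and at 58.2, 73.5 and 36.4 CPM in tubule barcodes. In all other kept barcodes Spp1 was at 2344, 2838 and 1618 CPM and Umod (uromodulin) at 1053, 1238 and 517.7 CPM, so WT was lowest there too for these genes. Clu (348.5, 472.2 and 407.2 CPM) and Pdzk1ip1 (388.9, 435.5 and 452.8 CPM) were not lowest in WT there. The sum over the 8 tubule markers in Ly6c2 monocytes was 2126.9, 2592.6 and 1668.4 CPM, all 8 were above 0 in every library, Kap was the most abundant, and their part in these differences was not tested. In subclusters 0, 1 and 2 the tubule markers summed to 1916, 1966 and 1983 CPM, and Spp1 stood at 162, 125 and 64.1 CPM.

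Tpm3-rs7 (chr14:113314608-113316754, a gene of the tropomyosin family) was at 62.0, 78.5 and 4.37 CPM, a log2 ratio of 3.73 (SD 0.24), and Gm8730 (chr8:102864845-102865798, annotated as a processed pseudogene) at 239.8, 214.3 and 35.0 CPM, a log2 ratio of 2.66 (SD 0.11). Both differed in the same way in all other kept barcodes, by 3.47 and 2.65 on the log2 scale, and are therefore not particular to these cells. Processed copies share sequence with their parent genes, so these counts are uncertain. Hes1, a repressor induced by Notch, was at 184.7, 212.1 and 71.7 CPM and at 187, 201 and 88.5 CPM in subclusters 0, 1 and 2, of which subcluster 2 had the highest level (340, 419.5 and 150.0 CPM). Hes1 was also higher in Aoah-/- outside these cells, by 0.66 on the log2 scale. Rsad2, an antiviral protein induced by interferon, was at 74.6, 102.5 and 30.6 CPM, but at 60.9, 40.7 and 35.1 CPM in subclusters 0, 1 and 2, where it was not past 2-fold.

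**Figure D4:**
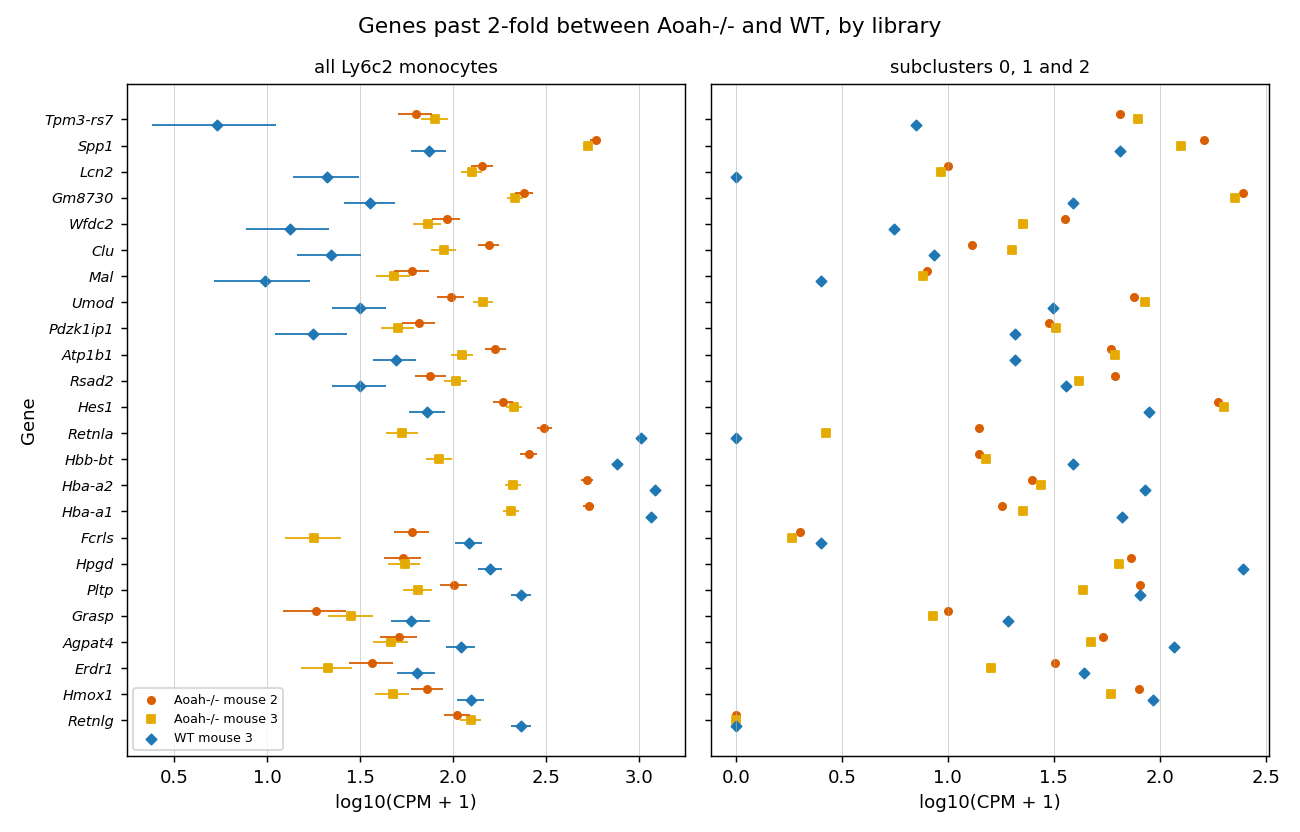
Levels of the 24 named genes as log10(CPM + 1) on the x axis (log scale) by library, in all Ly6c2 monocytes (left, lines are exact Poisson 95% intervals) and in subclusters 0, 1 and 2 (right, points only). Hpgd and Agpat4 keep WT above both Aoah-/- libraries in both panels, whereas Retnlg is listed at 0 on the right.

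Of the 13 lower genes, the 12 with the largest ratios were Retnla, Hbb-bt, Hba-a2, Hba-a1, Fcrls, Hpgd, Pltp, Grasp, Agpat4, Erdr1, Hmox1 and Retnlg. The direction of 5 of them turned without cells that had any UMI of the 3 tubule genes, where the log2 ratios were 0.41 for Hba-a1, 0.32 for Hba-a2, 1.97 for Hbb-bt, 0.80 for Hmox1 and 2.31 for Retnlg. Retnla, a secreted protein of alternatively activated macrophages, was at 308.1, 52.4 and 1024.8 CPM in 6.23%, 3.12% and 6.32% of the cells and belonged to subcluster 5. In subclusters 0, 1 and 2 it stood at 12.97 and 1.66 CPM in the Aoah-/- libraries and had no UMI in WT. The globins were low in both Aoah-/- libraries in all other kept barcodes too, with Hba-a1 at 502.5, 705.9 and 1544 CPM there. In Ly6c2 monocytes 5 cells held 97.7%, 67.4% and 95.8% of the Hba-a1 UMIs. Retnlg, a neutrophil gene, came from subcluster 6, and Fcrls from subcluster 5.

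Hpgd (chr8:56294585-56321043, plus strand), which encodes the dehydrogenase that inactivates prostaglandins, was lower in the Aoah-/- cells. Its levels were 53.0 CPM (41.7 to 66.3), 54.0 CPM (43.9 to 65.7) and 156.5 CPM (134.4 to 181.2), a log2 ratio of -1.53 (SD 0.02), and it was found in 11.3%, 12.2% and 34.5% of the cells. The intervals of the Aoah-/- libraries do not reach that of WT. By subcluster it was at 22.9, 45.0 and 212 CPM in subcluster 0, at 43.2, 71.0 and 198 CPM in subcluster 1 and at 181, 87.5 and 327 CPM in subcluster 2. WT was highest in each of these 3 subclusters, and the log2 ratio over them was -1.86 (SD 0.13). In C1q macrophages Hpgd was at 57.6, 146 and 202 CPM, and in type 2 dendritic cells at 23.8, 41.4 and 89.8 CPM. WT was highest in both, so this order was not particular to Ly6c2 monocytes. In all other kept barcodes Hpgd was at 18.6, 17.7 and 15.6 CPM (log2 ratio 0.21). Of other genes of lipid mediators, Alox5ap, which feeds leukotriene synthesis, was at 806.6, 864.4 and 875.3 CPM and Ptgs2, the inducible prostaglandin synthase, at 113.6, 171.8 and 121.5 CPM.

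Agpat4 (chr17:12118704-12219645, plus strand), an acyltransferase of phospholipid synthesis, was at 50.2 CPM (39.3 to 63.2), 45.3 CPM (36.1 to 56.1) and 109.3 CPM (91.0 to 130.2), a log2 ratio of -1.18 (SD 0.10). It was found in 20.6%, 18.4% and 44.8% of the cells. In subclusters 0, 1 and 2 it was at 52.9, 46.5 and 116.0 CPM, and in all other kept barcodes at 6.94, 7.01 and 8.73 CPM (log2 ratio -0.29). Type 2 dendritic cells had 58.1, 52.3 and 91.9 CPM, also highest in WT. Of the 33 genes counted past 2-fold, 11 were also past it in subclusters 0, 1 and 2, namely Tpm3-rs7, Gm8730, Spp1, Umod, Atp1b1, Hes1 and Irs2 on the higher side and Hba-a1, Hba-a2, Hpgd and Agpat4 on the lower side. Of the other 22, 5 kept a ratio of at least 2-fold the same way but lay under 50 CPM there, so they were not counted, namely Lcn2 (log2 ratio 3.27, with no UMI in WT), Wfdc2 (2.39), Mal (1.63), Hbb-bt (-1.43) and Grasp (-1.07). In those subclusters 15 genes were higher and 10 lower in all, and Cd300e, an activating receptor that led subcluster 2, was among the lower ones at 25.95, 31.6 and 62.6 CPM.

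MHC class II genes, which present peptides to helper T cells, lay below WT in the Aoah-/- Ly6c2 monocytes as a whole. The 10 genes summed to 14768 CPM (14569.6 to 14968), 11352 CPM (11197.9 to 11506.8) and 19955 CPM (19696.7 to 20215.4), a log2 ratio of -0.61 (SD 0.27). All 6 measured genes were below WT in both Aoah-/- libraries, against 33.5% of all genes, and none was past 2-fold, with a median log2 ratio of -0.59. H2-Aa was at 2954, 2244 and 4135 CPM and Cd74, the invariant chain, at 5557.4, 4307.8 and 7424 CPM. In subclusters 0, 1 and 2, however, the sum was 11615 CPM, 7065 CPM and 9465 CPM, with WT between the Aoah-/- libraries and a log2 ratio of -0.02. The subclusters differed among themselves, with 1241, 870 and 665 CPM in subcluster 0, 25808, 23167 and 28844 in subcluster 1, and 4083, 3486 and 6187 in subcluster 2. Subcluster 4, the dendritic-like cells whose share was larger in WT, had 40398, 42109 and 44498 CPM. Whether the sum over all Ly6c2 monocytes lay below WT thus depended on whether subclusters 3 to 6 were counted. Taken 1 by 1, WT was highest in subclusters 1 and 2 and lowest in subcluster 0. The sum over these subclusters also rests on their shares, with subcluster 1 holding 30.4%, 18.1% and 18.4% of the cells.

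**Figure D5:**
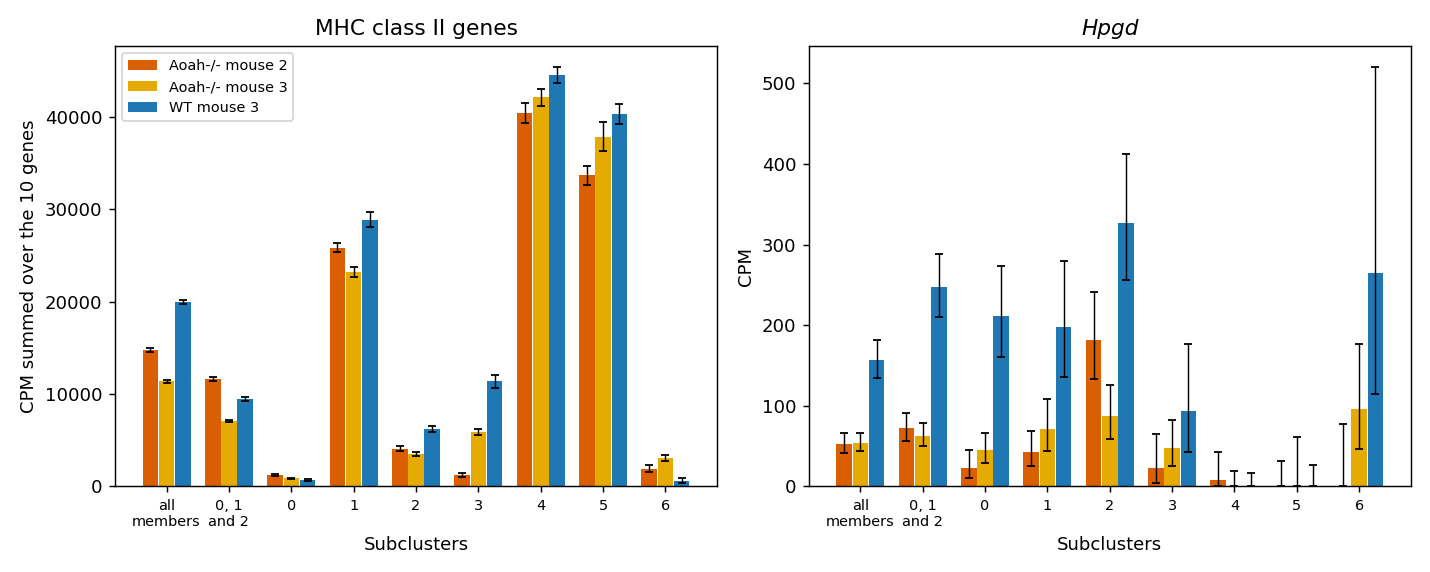
CPM (y axes) of the MHC class II list (left, summed over 10 genes) and of Hpgd (right) in all Ly6c2 monocytes, in subclusters 0, 1 and 2 together and in each subcluster (x axes), bars by library with exact Poisson 95% intervals. WT leads for MHC class II over all cells (19955 CPM) but lies between the Aoah-/- libraries in subclusters 0, 1 and 2 (9465 CPM), while Hpgd is highest in WT in both.

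Interferon response genes are induced by type I and type II interferons. The 18 genes summed to 4355.6, 4314.8 and 3332.5 CPM, a log2 ratio of 0.38 (SD 0.01), and 9 of 12 measured genes were above WT in both Aoah-/- libraries (43.4% of all genes) and 2 below it in both (33.5%), while 1, Rsad2, was past 2-fold (0.696%). Ifi27l2a, the most abundant, was at 2572.4, 2511.4 and 1860.8 CPM and Irf7, a factor that drives this response, at 233.5, 240.0 and 171.4 CPM. In subclusters 0, 1 and 2 the sum was 5308, 5239 and 4474 CPM (log2 ratio 0.24). MHC class I genes were at 8621.3, 8436.1 and 7802.6 CPM (0.13, and 0.07 in subclusters 0, 1 and 2), with B2m at 2971.8, 3032.7 and 2373.2 CPM.

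The 12 classical genes summed to 6970.5, 7528.1 and 6804 CPM (log2 ratio 0.09, SD 0.08) and the 11 non-classical genes to 2325.6, 2534.8 and 2138.9 CPM (0.18, SD 0.09), and none of the 11 and 10 measured genes was past 2-fold, against 1.15% of all genes, a share at which lists of this size would hold few. Ear2, a ribonuclease, was at 184.7, 150.5 and 247.5 CPM. In subcluster 0 the classical genes were at 10605, 11807 and 11746 CPM, and in subcluster 2 the non-classical genes were at 5673, 5958 and 5246 CPM. The lists for lipopolysaccharide recognition (2163.9, 2309.0 and 2043.6 CPM), glycolysis (1985.4, 1914.7 and 1838.1 CPM) and lipid mediators (1124.5, 1192.1 and 1165.6 CPM) had log2 ratios of 0.13, 0.09 and -0.01, and of 0.07, 0.04 and 0.03 in subclusters 0, 1 and 2. Chemoattractant receptors other than Ccr2 summed to 780.1, 886.7 and 656.7 CPM (0.34, and 0.21 in subclusters 0, 1 and 2), with Cxcr4 at 232.1, 259.6 and 181.9 CPM.

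Immediate early and heat shock genes, which dissociation of tissue can induce, summed to 7259.1, 9972.9 and 6257.5 CPM, a log2 ratio of 0.46 that does not pass the gap between the Aoah-/- libraries (SD 0.32) and was 0.47 in subclusters 0, 1 and 2. Fos was at 1348.2, 1948 and 1079.9 CPM and Egr1 at 290.0, 359.4 and 167.9 CPM. Cell cycle genes were low, with 289.3, 171.8 and 252.7 CPM summed over 10 genes and Mki67 at 31.4, 14.7 and 18.4 CPM. Mki67 was at 3.33 CPM in subcluster 0, 1.23 CPM in subcluster 2 and 66.02 CPM in subcluster 4.

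Of the 33 lists, 3 were past 2-fold by the same rule, and all were markers of other cells. The 5 erythroid genes summed to 3404.7, 1175.8 and 6070.4 CPM (log2 ratio -1.41, SD 1.08). The ratio was -0.83 for Aoah-/- mouse 2 alone, under 2-fold, and turned to 0.53 without cells that had any UMI of the 3 tubule genes. All 5 genes were detected in each library, with Hbb-bs the most abundant. A few cells carried these sums, since 5 cells of a library held 96.4% to 98.1%, 67.4% to 75.8% and 93.9% to 96.6% of the UMIs of each of the globins Hba-a1, Hba-a2, Hbb-bs and Hbb-bt. The 12 natural killer and T cell genes summed to 122.7, 124.3 and 48.1 CPM (1.34, SD 0.01), and 6 of them, among them Cd3e and Nkg7, were at 0 in WT. The 4 fibroblast genes summed to 8.37, 7.63 and 78.7 CPM (-3.15, SD 0.08), with Dcn the most abundant. In all other kept barcodes Dcn was at 10.4, 11.9 and 450.0 CPM, and Hbb-bs at 1247, 1734 and 3880 CPM, so WT was highest there too. The 12 neutrophil genes summed to 1930.3, 4062.3 and 1402.6 CPM and in subclusters 0, 1 and 2 to 135, 135 and 127 CPM. The part of these cells in the differences between genotypes was not tested.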

How the data were processed

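The authors deposited raw UMI counts per gene and barcode for 3 libraries of droplet 3′ RNA sequencing from mouse kidney. The submitters' processing notes name Cell Ranger 3.1.0, STAR, Seurat 4.2.0 and mm10, while the file headers give cellranger 6.1.2. The files held 27998 genes, and 65 rows that repeat a symbol were added to the first row of that symbol. Doublets were not removed, since no filter on them is given in the sources used here.

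UMIs were summed over the Ly6c2 monocytes of each library and given as CPM. The log2 ratio was that of the Aoah-/- mean to WT with 1 CPM added, and its SD came from the 2 Aoah-/- ratios. With 1 WT library no test was made. Reference cells were C1q macrophages (10 or more C1q UMIs), type 2 dendritic cells (2 or more Cd209a UMIs), tubule barcodes (10 or more tubule UMIs) and neutrophils. Neutrophils had 10 or more S100a8 and S100a9 UMIs and at least 2 of Csf3r, Retnlg, Mmp9, Cxcr2, Ly6g and G0s2 detected. All but the tubule barcodes had further limits on the other classes. Subclusters came from Leiden clustering in scanpy 1.11.5 with igraph 0.11.9 (20 components, 15 neighbours, resolution 0.5). Names were given by markers, and the leading genes by rank of fold. The marker rule gave erythroid-like for subcluster 3 and conventional dendritic-like for subcluster 5. Both names were set aside after the values had been seen, since the leading genes were of several types. TMM factors came from edgeR 4.0.16 in R 4.3.3, and intervals from scipy 1.17.1. The log2 ratios and the rule for genes past 2-fold were tried on simulated counts with known changes and no spread between mice. The other steps were not simulated.

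Named genes were the 20 with the highest lowest ratio to all other barcodes, the 12 per direction with the largest ratio between genotypes, the 8 per direction against each reference class, and the genes of 33 lists (353 genes, of which 2 were not found in the files). The members, the lists and the rules were chosen with earlier results of these data known. Alternatives changed the member rule, the depth, the scaling, the filter on low values and the libraries. Replicates are mice of 1 library each, so the spread covers mouse and library together. Promoter sequences were taken from RefSeq on GRCm38.p6.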

Additional observations from a re-analysis of the deposited data

Results flagged for a closer look

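Barcodes below the lowest depth of the rule were outside every comparison. In Aoah-/- mouse 2, 14 of 6070 such barcodes met the rest of the rule, a share of 0.2306% (0.126 to 0.387, exact Clopper-Pearson 95% interval). In the WT library 3 of 5823 did, a share of 0.0515% (0.0106 to 0.151), and Aoah-/- mouse 3 has no barcode of this depth. The share in Aoah-/- mouse 2 lay above that of the WT library, which drew attention to it, and the intervals overlap.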

How the results depend on the processing

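No paired analysis was possible because the groups share only replicate number 3, and no test was made. The difference in the share of Ly6c2 monocytes stayed positive among kept barcodes, at 0.378 percentage points with Ly6c2 detected, 0.377 with at least 4 markers, 0.498 at no more than 20% mitochondrial UMIs, 0.286 without cells of 10 or more S100a8 and S100a9 UMIs, 0.169 with no C1q UMI and 0.0491 without cells that had any tubule UMI. It was 0.268 in subclusters 0, 1 and 2 and 0.929 with no limit on tubule UMIs, both alternatives chosen after seeing the data. The difference turned to -3.34 with the 4 myeloid classes as the denominator, and leaving out either Aoah-/- library gave 0.319 to 0.353.

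The genes past 2-fold numbered 20 higher and 13 lower. They were 94 and 24 with at least 20 CPM, 2 and 6 with at least 200 CPM, 53 and 30 after thinning, 31 and 32 without cells that had any tubule UMI, 13 and 21 without the 5% of cells with the most UMIs, and 16 and 20 with TMM factors, which moved the median log2 ratio of all genes from 0.04 to -0.07. Close counts did not mean the same genes. With at least 4 markers 23 were higher and 13 lower, of which 6 and 7 were among the 20 and 13, with Ly6c2 detected 22 and 16, of which 7 and 9 were, and without cells that had any tubule UMI 7 and 5 were. Without either Aoah-/- library, 46 to 50 were higher and 18 to 25 lower, and 4 to 5 lists passed 2-fold instead of 3. With 1 Aoah-/- library left there is no gap between libraries to pass, so only the 2-fold limit of the rule applied there. The counts without an Aoah-/- library thus come from a looser rule and cannot be compared with the 20, 13 and 3. Without cells that had any tubule UMI the log2 ratios of Hba-a1 (0.41), Hba-a2 (0.32), Hbb-bt (1.97), Hmox1 (0.80), Retnlg (2.31) and the erythroid list (0.53) turned positive. Retnlg was at 0.96 without the S100a8 and S100a9 cells and Retnla at 3.06 in subclusters 0, 1 and 2. The cause of these changes was not tested. Over all alternatives of the named genes and lists, 286 values for genes and 302 for lists moved by less than the spread and 115 and 159 by more. A further 7 values for genes and 1 for lists were set apart as changes of sign. For lists this was done only for those past 2-fold. Changes of sign in the other lists stand among the values that moved by less or by more. The WT side rests on 1143586 UMIs of 174 cells, so genes near 50 CPM have wide intervals there.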

Other observations

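In subclusters 0, 1 and 2, chosen after the values had been seen, 14 genes were counted past 2-fold that were not counted in all Ly6c2 monocytes. The ratios of some moved little, with log2 ratios of 1.41 over all cells, where it lay under 50 CPM, and 1.29 here for Relt, 0.99 and 1.02 for Fabp5, and -0.97 and -1.03 for Jdp2. Others moved more, with 0.47 and 1.35 for Hspa1a, 0.63 and 1.27 for Atp6v1h, -0.58 and -1.30 for Akr1c21, and a change of sign from 0.16 to -1.003 for Flt1. Higher in Aoah-/- were the heat shock gene Hspa1a (226.5, 274.8 and 97.7 CPM), Fabp5, a fatty acid binding protein (163.7, 117.9 and 68.7 CPM), and Relt, a receptor of the tumour necrosis factor family (46.9, 53.1 and 19.85 CPM). Fabp5 was higher in all other kept barcodes as well, by 1.11 on the log2 scale. Lower were Jdp2, an AP-1 family repressor (24.95, 32.4 and 59.5 CPM), and Hmgcs1, an enzyme of cholesterol synthesis (45.9, 50.6 and 103.8 CPM), the latter with a log2 ratio of -1.09 (-0.62 over all cells). In all other kept barcodes the log2 ratios of Jdp2 and Hmgcs1 were 0.23 and -0.08. Of the 10 lower genes of subclusters 0, 1 and 2, 4 were also lower in all Ly6c2 monocytes, and of the 15 higher genes 7 were.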
